A study of Botryllus schlosseri with 27 samples.

Results

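The 196 contigs described here were nearly without reads in 1 colony, the young SMG colony of Botryllus schlosseri, and present in the other 8 colonies of the study. They were chosen by their values: reads of the 3 libraries of each line and age were summed, scaled to the count in each 1000000 reads of the colony (CPM), and contigs were kept that lay under 0.1 CPM in young SMG and at 1 CPM or more in each of the other 8 sums. Of 50106 contigs in the table, 492 met both limits. They were ranked by their lowest CPM among the other 8 colonies, the top 200 were taken, and 4 of these were left out because they carry a trypsin-2 homolog name. Only 23 of the 200 were in the rows of homolog names that were read, so other contigs of digestive or sperm genes may remain among the 196. The low level in young SMG and the higher level elsewhere are therefore the selection itself and were not tested.

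Whole colonies of 3 wild-type lines raised in the laboratory, SMG, SB825 and SMH, were sequenced at 4 months (young), 2 years and 3 years, all at stage B2 of the blastogenic cycle, which gave 9 line and age groups of 3 libraries. Young colonies were bred from the 2-year-old genotype and the 2-year-old colonies from the 3-year-old genotype of the same line, so age and generation cannot be told apart. Each line and age is 1 genotype, and the sum of its 3 libraries is called a colony. The sample labels write SMG at every age, while the count table writes SMGO for the young libraries and SMG for the older ones. The study's methods name SMGO among the genotypes at both 4 months and 3 years. SMG and SMGO were treated as 1 line, and whether the young colony is of that line was not tested.

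Botryllus is a colonial tunicate, a close invertebrate relative of vertebrates, whose colonies consist of genetically identical zooids that share a gelatinous tunic and a network of blood vessels. All zooids of a colony pass together through a weekly cycle in which buds mature and the previous generation of adults is resorbed. A contig is a stretch of transcript assembled from expressed sequence tags (ESTs), 1 gene can be represented by several contigs, and a contig without a homolog name can be a non-coding end of a gene or a gene particular to tunicates. RNA was taken from whole colonies, so fewer cells of a type and less RNA per cell cannot be told apart. Levels count only reads that mapped to an EST assembly. Whether young SMG holds transcripts of the same genes that did not map was not tested.

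Colonies held 109038294 to 126872964 reads, with 110326590 in young SMG, so that 0.1 CPM corresponds to 11.0 reads there. Every count is even, and read pairs were mapped, so limits from counting are given for 3 read pairs (6 reads). The 3 young SMG libraries differed from each other more than the libraries of any other colony, with a chi-square per degree of freedom of 81.6 over contigs, against 7.47 to 35.2 in the others. Young SMG had a read in 38443 contigs, against 44187 to 45597 contigs in the other 8 colonies, and reached 1 CPM in 23200 contigs, against 26926 to 30876.

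The 196 members held 780 reads together in young SMG, or a summed level of 7.07 CPM, against summed levels of 1664 to 4542 CPM in the other colonies. In young SMG 63 members had 0 reads, which allows a level of up to 0.0544 CPM (3 read pairs) as far as counting error goes, 25 had 2 reads, 29 had 4, 34 had 6, 20 had 8 and 25 had 10. The few reads came from all 3 young libraries, which held 228, 270 and 282 of them, and no library gave a member more than 8 reads. Outside young SMG, all 196 members had a read in all 24 libraries, and 187 stayed at 1 CPM or more in each of the 24. The 14 library values under 1 CPM included 4 in the first library of SMH at 4 months and 3 in the third library of SMG at 2 years, and the lowest was 0.304 CPM. No young SMG library overlapped the other libraries for any member, as the limits nearly fix.

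The median level of the members was 0.0363 CPM in young SMG, against 3.82 and 5.73 CPM in SMG at 2 and 3 years, 5.93, 6.91 and 7.27 CPM in SB825 at 4 months, 2 years and 3 years, and 5.81, 6.19 and 4.92 CPM in SMH at the same ages. The members were thus contigs of modest abundance. Their median over the other 8 colonies was 5.83 CPM in the median member and ran from 2.45 to 114 CPM, while the 20860 contigs at 1 CPM or more in those 8 colonies had a median of 8.23 CPM.

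**Figure D1:**
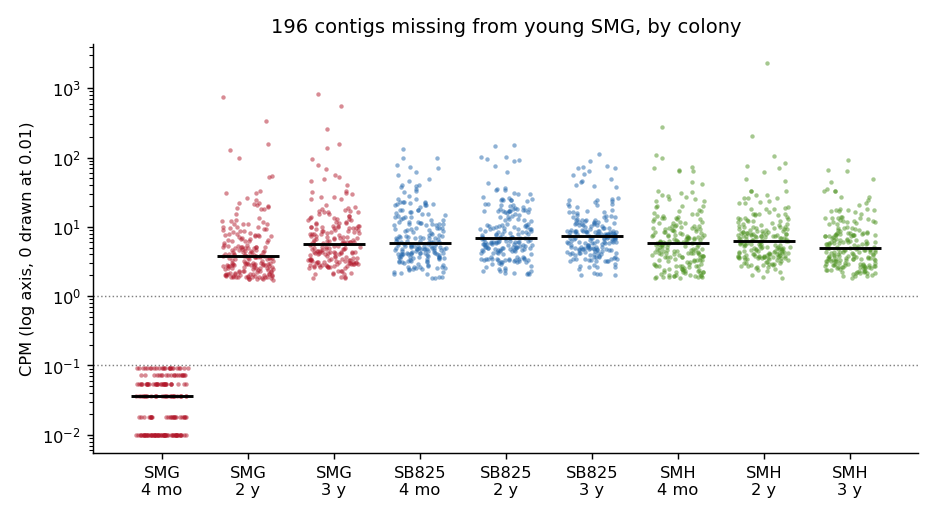
Level of each of the 196 members in each of the 9 colonies, as CPM on a log axis with 0 drawn at 0.01 and the limits of 0.1 and 1 CPM dotted. Each point is a contig and each black bar the median, which is 0.0363 CPM in young SMG and 3.82 to 7.27 CPM in the other colonies.

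The limits cut through a continuous range. Just outside the lower limit lay Bot_rep_c47201, which had 12 reads in young SMG (0.109 CPM) and 76.9 to 307 CPM in the other 8 colonies, more than any member by its lowest value. Just inside it lay CAP3_round1_contig_7431, with 10 reads in young SMG and 20.8 to 147 CPM elsewhere. By rank, the last member was CAP3_round1_contig_7794, with a lowest value of 1.73 CPM, and the next contig, Bot_rep_c38629, had 1.72 CPM. The last contig to meet the limits was Bot_rep_c40343 with a lowest value of 1.00 CPM, and Bot_c17418 lay just under 1 CPM. Of the 20860 contigs at 1 CPM or more in the other 8 colonies, young SMG had 0 reads in 140, 2 to 10 reads in 352, 12 to 20 in 262, 22 to 50 in 623, 52 to 110 in 1131, and more in 18352.

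The same limits applied to each colony in turn gave 492 contigs for young SMG, against 22 for SMH and 21 for SB825 at 4 months. For the older colonies they gave 0 for each line at 2 years, and 11 for SMG, 6 for SB825 and 18 for SMH at 3 years. As a share of the contigs at 1 CPM or more in the other 8, this was 2.36% for young SMG, against at most 0.118% for any other colony. The reverse pattern, 1 CPM or more in 1 colony and under 0.1 CPM in all others, was held by 0 contigs for young SMG and by 0 to 29 for the other colonies. Relative to the median of the other 8 colonies, and with levels under 3 read pairs set to that level, 0.911% of contigs lay between -7 and -6 on the log2 scale in young SMG, against 0.0862% in young SB825 and 0.107% in young SMH. Closer to the others, between -3 and -2, the shares were 5.27% in young SMG, against 1.34% in young SB825 and 1.59% in young SMH, so the excess of low contigs in young SMG was not limited to contigs without reads. Young SMG was not shifted downward alone. At 2 or more lay 3.59% of contigs in young SMG, against 2.64% in young SB825 and 0.440% in young SMH. Between 1 and 2 the shares were 18.1% in young SMG, 18.7% in young SB825 and 4.00% in young SMH.

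**Figure D2:**
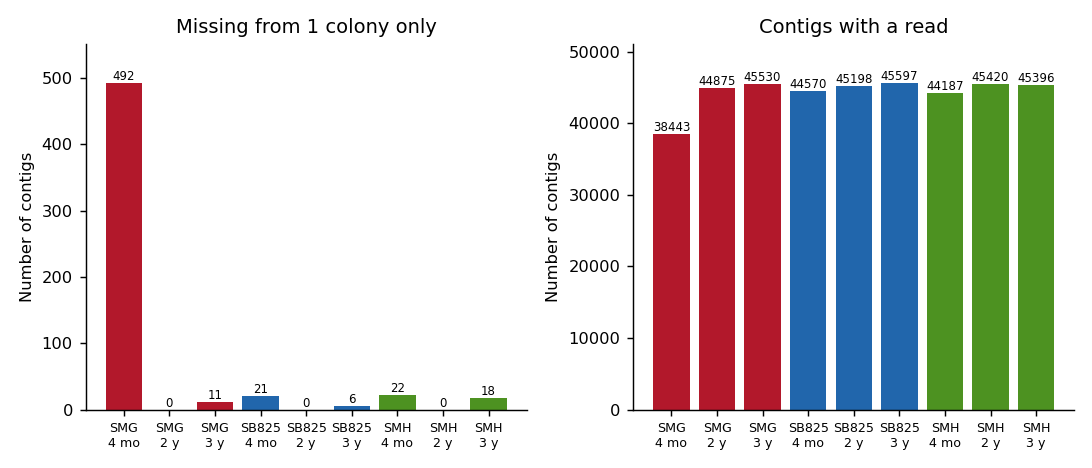
Number of contigs under 0.1 CPM in 1 colony and at 1 CPM or more in each of the other 8 (left), and number of contigs with a read (right), as bars for each colony with the count printed above. Young SMG has 492 contigs in the left panel, against 0 to 22 in the other colonies, and 38443 in the right panel, against 44187 or more.

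**Figure D3:**
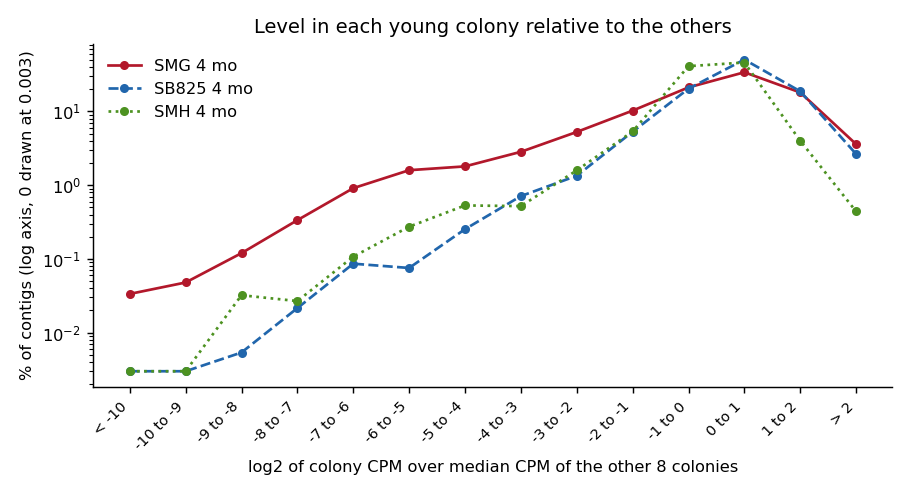
Share of contigs (log axis, 0 drawn at 0.003) by the log2 of a young colony's CPM over the median of the other 8 colonies, for the contigs at 1 CPM or more in those 8, with levels under 3 read pairs set to that level. The line for young SMG lies above those of young SB825 and young SMH in each bin below -1, with shares of 5.27% in young SMG between -3 and -2 and 0.911% between -7 and -6.

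Markers of sperm and of digestive cells, other cell types that a whole colony can hold, also differed between the colonies. The summed level of 33 contigs with sperm or axoneme homolog names was 3.34 CPM in young SMG, against 336 and 247 CPM in SMG at 2 and 3 years, 72.5, 165 and 64.2 CPM in SB825 at 4 months, 2 years and 3 years, and 7.69, 142 and 118 CPM in SMH at those ages. Of the 33 contigs, 13 had 0 reads in young SMG and 5 in young SMH. For 86 contigs with digestive enzyme names the sum was 1893 CPM in young SMG, against 793 CPM in young SB825 and 534 CPM in young SMH, and 2694 to 9454 CPM in the older colonies. Of these 86, 13 had 0 reads in young SMG, and every one had reads in each of the other colonies. The marker names come from rows of the study's comparison of old with young libraries, which includes young SMG. Differences of these markers between old and young colonies may therefore partly follow from the choice of rows. The part of these cell types in the members' pattern was not tested.

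The 10 members of highest rank were those with the highest lowest CPM among the other 8 colonies. CAP3_round1_contig_9512 had 0.0544 CPM in young SMG, against 31.1 and 56.1 CPM in SMG at 2 and 3 years, 45.6, 29.6 and 55.8 CPM in SB825 at 4 months, 2 years and 3 years, and 99.1, 62.2 and 49.7 CPM in SMH at those ages. Its young SMG libraries held 2, 0 and 4 reads, and its other 24 libraries 22.5 to 106 CPM, with the highest in young SMH. Bot_rep_c59097 had 0.0544 CPM in young SMG, against 99.1 and 96.8 CPM in SMG at 2 and 3 years, 28.2, 20.9 and 45.3 CPM in SB825 at 4 months, 2 years and 3 years, and 63.6, 71.7 and 93.5 CPM in SMH at those ages. CAP3_round1_contig_8918 had 0.0725 CPM in young SMG, against 21.6 and 53.2 CPM in SMG at 2 and 3 years, 32.4, 20.1 and 37.9 CPM in SB825 at 4 months, 2 years and 3 years, and 65.4, 46.1 and 35.2 CPM in SMH at those ages. Of these 3 contigs, Bot_rep_c59097 was highest in the older SMG colonies, while the others were highest in young SMH. CAP3_round1_contig_7431 was highest in SB825, with 0.0906 CPM in young SMG, against 20.8 and 32.0 CPM in SMG at 2 and 3 years, 134, 147 and 71.6 CPM in SB825 at 4 months, 2 years and 3 years, and 70.7, 74.5 and 64.9 CPM in SMH at those ages. CAP3_round1_contig_8287 had 0.0725 CPM in young SMG, against 11.7 and 32.6 CPM in SMG at 2 and 3 years, 79.0, 31.1 and 38.4 CPM in SB825 at 4 months, 2 years and 3 years, and 23.5, 28.5 and 13.6 CPM in SMH at those ages. In both contigs SMG at 2 years was the lowest colony after young SMG. 454_debris_rep_c1179 had 0 CPM in young SMG, against 26.2 and 25.2 CPM in SMG at 2 and 3 years, 14.1, 11.0 and 21.4 CPM in SB825 at 4 months, 2 years and 3 years, and 23.2, 25.9 and 22.2 CPM in SMH at those ages. Bot_c2403 had 0 CPM in young SMG, against 8.03 and 8.71 CPM in SMG at 2 and 3 years, 14.8, 24.6 and 15.7 CPM in SB825 at 4 months, 2 years and 3 years, and 8.00, 14.9 and 10.1 CPM in SMH at those ages. Neither had a read in young SMG.

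Of the other members among these 10, CAP3_round1_contig_6945 had 0.0544 CPM in young SMG, against 10.1 and 11.9 CPM in SMG at 2 and 3 years, 14.1, 16.8 and 12.7 CPM in SB825 at 4 months, 2 years and 3 years, and 20.2, 18.3 and 13.1 CPM in SMH at those ages. Bot_rep_c57518 had 0.0544 CPM in young SMG, against 7.28 and 9.92 CPM in SMG at 2 and 3 years, 35.1, 29.9 and 25.2 CPM in SB825 at 4 months, 2 years and 3 years, and 31.2, 22.6 and 17.5 CPM in SMH at those ages. Bot_rep_c57518 was lower in both older SMG colonies than in any SB825 or SMH colony. Bot_rep_c55602 showed the opposite order, with 0.0181 CPM in young SMG, against 341 and 261 CPM in SMG at 2 and 3 years, 7.81, 74.5 and 48.9 CPM in SB825 at 4 months, 2 years and 3 years, and 9.23, 22.2 and 16.7 CPM in SMH at those ages. None of the 10 has a human homolog name in the rows used, so their functions are not known here.

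**Figure D4:**
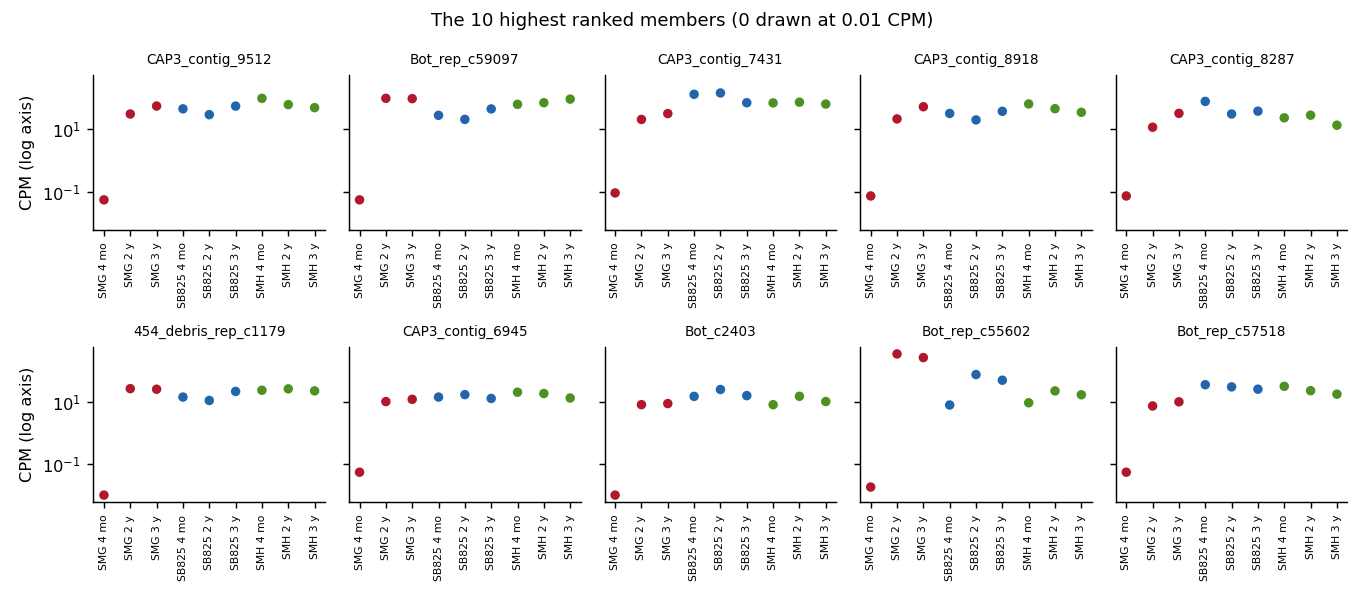
Level of the 10 members of highest rank in each colony, 1 panel for each contig, as CPM on a log axis with 0 drawn at 0.01. Each point is a colony (SMG red, SB825 blue, SMH green), and in each panel the young SMG point lies under 0.1 CPM while the other 8 lie between 7.28 and 341 CPM.

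Of the 196 members, 19 appeared in the 1998 rows of homolog names that were read, 5 of them with a named human homolog and 1 with a name from the tunicate Ciona only. By lists of gene names, 1 of the 5 belonged to receptors and signalling, 1 to complement and coagulation, 1 to adhesion and matrix and 2 to no list, and none to the lists for lectins, interferon response, ubiquitin, transposons, transporters, cytoskeleton or ribosome and translation. That no digestive enzyme stands among the 5 follows from the rule: before the trypsin-2 contigs were left out, digestive enzymes were 4 of the 9 named contigs of the top 200, and they are 5 of the 16 named contigs among the 492. The names of the other members were not analysed here. The rows come from the study's comparison of old with young libraries, which includes young SMG, so the choice of rows is not independent of the members.

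Bot_rep_c51759 matches ADP-ribosylation factor 1 (ARF1), a small GTPase that recruits vesicle coats at the Golgi, and had 0.0725 CPM in young SMG, against 5.06 and 20.6 CPM in SMG at 2 and 3 years, 17.3, 16.8 and 114 CPM in SB825 at 4 months, 2 years and 3 years, and 28.6, 14.7 and 32.7 CPM in SMH at those ages. It was highest in SB825 at 3 years. CAP3_round1_contig_9351 matches CUB and sushi domain protein 1 (CSMD1), a large membrane protein with domains shared with complement regulators, and had 0.0906 CPM in young SMG, against 2.55 and 7.10 CPM in SMG at 2 and 3 years, 4.81, 5.48 and 8.62 CPM in SB825 at 4 months, 2 years and 3 years, and 2.49, 4.14 and 4.63 CPM in SMH at those ages. Bot_c33954 matches FRAS1, an extracellular matrix protein of epithelial basement membranes, and had 0.0181 CPM in young SMG, against 6.55 and 6.05 CPM in SMG at 2 and 3 years, 1.89, 2.53 and 2.95 CPM in SB825 at 4 months, 2 years and 3 years, and 2.37, 5.03 and 2.84 CPM in SMH at those ages. It was highest in the 2 older SMG colonies.

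Bot_rep_c56477 matches enhancer of rudimentary (ERH), a small conserved nuclear protein linked to RNA processing, and had 0.0544 CPM in young SMG, against 12.0 and 13.4 CPM in SMG at 2 and 3 years, 5.28, 3.38 and 2.47 CPM in SB825 at 4 months, 2 years and 3 years, and 2.20, 2.39 and 20.8 CPM in SMH at those ages. The 2 older SMG colonies and SMH at 3 years stood above its other colonies. CCTT19680.b1 matches the arginine-glutamic acid dipeptide repeats protein (RERE), a transcriptional co-repressor, and had 0.0181 CPM in young SMG, against 3.28 and 10.4 CPM in SMG at 2 and 3 years, 3.08, 6.08 and 6.89 CPM in SB825 at 4 months, 2 years and 3 years, and 1.81, 12.3 and 3.04 CPM in SMH at those ages. CAP3_round1_contig_9332 has a Ciona match named like epithelial membrane protein 2, a protein with 4 membrane spans in mammals, and had 0.0181 CPM in young SMG, against 5.48 and 8.25 CPM in SMG at 2 and 3 years, 4.20, 21.4 and 16.3 CPM in SB825 at 4 months, 2 years and 3 years, and 2.25, 9.42 and 17.2 CPM in SMH at those ages. In SB825 and SMH its young colony was the lowest of the 3 ages.

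The members also varied among the other 8 colonies. The lowest of the 8 values is also the value by which they were ranked. The ratios and the shares of lowest colonies given here are therefore not independent of the rule, and their differences from other contigs were not tested. The ratio of the highest to the lowest of the 8 colonies had a median of 4.01 in the members, against 2.99 over the 20860 contigs, and was under 2 in 10 members (5.10%), against 13.4% of the 20860. The flattest members were CCTT21384.b1, Bot_rep_c50141 and CAP3_round1_contig_9719, with ratios of 1.57, 1.70 and 1.77. At the other end stood Bot_c2830 with a ratio of 1112, which had 0.0363 CPM in young SMG, against 4.94 and 831 CPM in SMG at 2 and 3 years, 2.11, 5.13 and 4.91 CPM in SB825 at 4 months, 2 years and 3 years, and 3.49, 2345 and 6.07 CPM in SMH at those ages. Its range came from SMH at 2 years and SMG at 3 years alone. Bot_rep_c50507 had a ratio of 164, with 0.0181 CPM in young SMG, against 747 and 559 CPM in SMG at 2 and 3 years, 4.55, 152 and 89.5 CPM in SB825 at 4 months, 2 years and 3 years, and 4.57, 18.8 and 13.9 CPM in SMH at those ages. Bot_rep_c55287 had a ratio of 55.2, with 0.0544 CPM in young SMG, against 129.8 and 157 CPM in SMG at 2 and 3 years, 98.3, 93.5 and 74.1 CPM in SB825 at 4 months, 2 years and 3 years, and 276, 207 and 5.0 CPM in SMH at those ages, so that SMH at 3 years alone was low. The colony with the lowest of the 8 values was SMG at 2 years for 72 members (36.7%, against 34.7% of the 20860) and SMH at 4 months for 36 (18.4%, against 12.3%). It was SMH at 3 years for 20 (10.2%, against 23.8%) and SB825 at 2 years for 19 (9.69%, against 2.85%).

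Some members followed each other closely, and the same count was not made for other contigs. Across the 24 libraries outside young SMG, which share 8 colonies, the median pairwise correlation of log2(CPM + 0.1) was 0.159, and 7 pairs had an r of 0.97 or more, joining 11 members in 5 sets. The largest set held Bot_rep_c55602, Bot_rep_c50507 and Bot_rep_c55005, with r from 0.978 to 0.991, and the highest r, 0.996, joined 454_debris_c801 and Bot_c28066. Whether the members of a set belong to 1 transcript was not tested. Contigs whose names start with Bot_rep_c made up 106 of the members (54.1%), against 27.3% of the 20860, while Bot_c contigs made up 29 (14.8%), against 34.5%, and CAP3_round1_contig contigs 51 (26.0%), against 36.1%. What these classes of the assembly differ in was not analysed here.

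By the labels the older SMG colonies belong to the same family as young SMG, and the first comparison asked whether the members also differed there from the other lines. SMG at 3 and 2 years was set against SB825 and SMH at these ages by a quasi-likelihood test in edgeR on summed counts, with Benjamini-Hochberg adjustment over 44470 contigs and a 10% false discovery rate. This test uses no young colony, although the limit of 1 CPM bounds how low a member can lie in it. All 196 members passed the filter on low counts. Of them, 10 were lower in SMG (5.10%), against 2.01% of all contigs tested and 1.66% of the 20860, and 12 were higher in SMG (6.12%), against 2.24% and 1.32%. At an unadjusted p under 0.05 there were 28 lower and 29 higher members, against 9.24% and 11% of all contigs tested. The median log2 difference of the members was -0.06, against 0.03 over all contigs tested and -0.04 over the 20860. A difference of at least 1 on the log2 scale was held by 24 members (12.2%) as lower and 26 (13.3%) as higher, against 4.85% and 4.19% of the 20860. The members thus lay on both sides of the other lines in the older SMG colonies, and 174 did not pass the test. This balance goes with the ranking by lowest CPM: over all 492 contigs that met the limits, a set added after the data were seen, 30 were lower and 14 higher, 95 and 44 had an unadjusted p under 0.05, and 16.9% and 8.54% differed by at least 1 on the log2 scale.

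The lower members of smallest p carry no homolog name. CAP3_round1_contig_9767 had 2.15 and 2.73 CPM in SMG at 2 and 3 years, against 18.3 and 17.6 CPM in SB825 and 15.4 and 9.77 CPM in SMH at those ages, a log2 difference of -2.27 (SE 0.22, adjusted p = 0.0295) in edgeR. Both SMG colonies lay below the other 4. Bot_c1365 had 2.01 and 2.28 CPM in SMG at 2 and 3 years, against 24.7 and 14.6 CPM in SB825 and 22.3 and 11.7 CPM in SMH at those ages, a log2 difference of -2.71 (SE 0.31, adjusted p = 0.0375) in edgeR. Bot_rep_c49035 had 2.32 and 2.67 CPM in SMG at 2 and 3 years, against 35.2 and 24.3 CPM in SB825 and 4.38 and 3.33 CPM in SMH at those ages, a log2 difference of -1.74 (SE 0.20, adjusted p = 0.0365) in edgeR. For these contigs, too, the groups did not overlap.

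The 3 higher members of smallest p were the largest set of contigs that followed each other. Bot_rep_c50507 had 747 and 559 CPM in SMG at 2 and 3 years, against 152 and 89.5 CPM in SB825 and 18.8 and 13.9 CPM in SMH at those ages, a log2 difference of 4.27 (SE 0.27, adjusted p = 0.0243) in edgeR. Bot_rep_c55602 had 341 and 261 CPM in SMG at 2 and 3 years, against 74.5 and 48.9 CPM in SB825 and 22.2 and 16.7 CPM in SMH at those ages, a difference of 3.51 (SE 0.24, adjusted p = 0.0243) in edgeR. Bot_rep_c55005 had 155 and 136 CPM in SMG at 2 and 3 years, against 34.2 and 23.8 CPM in SB825 and 16.2 and 9.68 CPM in SMH at those ages, a difference of 3.29 (SE 0.22, adjusted p = 0.0243) in edgeR. They were among the most abundant members in the older SMG colonies and under 0.1 CPM in the young one. The FRAS1 homolog Bot_c33954 passed narrowly, with a log2 difference of 1.31 (SE 0.27, adjusted p = 0.0994) in edgeR.

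There were only 2 SMG colonies in this test, and leaving out SMG at 2 years or SMG at 3 years left 0 members and 0 of all 45497 or 45409 contigs called, where the remaining colony is assumed to vary like the others, so this loss is not particular to the members. Without SB825 at 2 years, SB825 at 3 years or SMH at 3 years, the members' median log2 difference was -0.10, -0.04 and 0.01. Without the second library of each colony 6 members were lower (1.64% of all contigs). With age as a block 1 was lower and 5 were higher (0.202% and 0.191%).

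**Figure D5:**
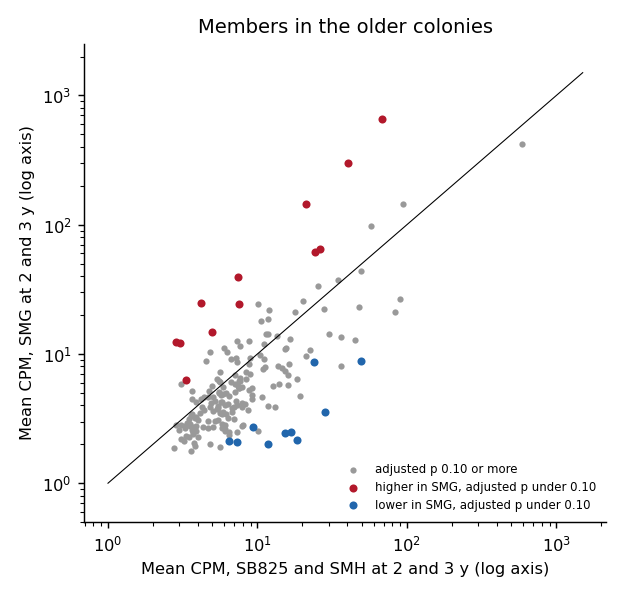
Mean CPM of each member in SMG at 2 and 3 years (vertical) against its mean in SB825 and SMH at those ages (horizontal), both on log axes, with the line of equality. The 12 members called higher in SMG (red) and the 10 called lower (blue) lie on either side of the line, and the other 174 are grey.

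The second comparison set SMH against SB825 over the 3 ages, which involves no SMG colony, to show how far the members differed between the lines that had them at every age. Its colonies are all among those that the rule held to 1 CPM or more, which bounds how low a member can lie. Of the 196 members, 9 were lower in SMH (4.59%) and 19 were higher (9.69%) in edgeR with Benjamini-Hochberg adjustment. Of the 43026 contigs tested these were 4.89% and 5.56%, and of the 20860 they were 3.87% and 4.48%. At an unadjusted p under 0.05 there were 16 lower and 41 higher members, against 10.4% and 12% of all contigs. The split of directions depends on the scaling. With library totals alone 29 members were lower and 9 higher, against 16.8% and 3.79% of all contigs. The median of all contigs tested then moved to -0.50 and that of the members to -0.34 on the log2 scale. With TMM scaling the medians were 0.18 for the members and 0.03 for all contigs. Calls here are therefore relative to that shift.

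Among the lower members, Bot_rep_c51031 had 6.23, 7.81 and 4.70 CPM in SMH at 4 months, 2 years and 3 years, against 72.8, 88.0 and 44.6 CPM in SB825, a log2 difference of -2.92 (SE 0.28, adjusted p = 0.00583) in edgeR. Bot_rep_c49035 had 5.10, 4.38 and 3.33 CPM in SMH at 4 months, 2 years and 3 years, against 49.9, 35.2 and 24.3 CPM in SB825, a difference of -2.57 (SE 0.29, adjusted p = 0.00847) in edgeR. Bot_rep_c36387 had 2.76, 2.26 and 2.57 CPM in SMH at 4 months, 2 years and 3 years, against 21.9, 17.4 and 12.9 CPM in SB825, a difference of -2.23 (SE 0.27, adjusted p = 0.00953) in edgeR. Each was low in SMH at every age, without overlap. Among the higher members, CAP3_round1_contig_1937 had 32.3, 32.9 and 13.3 CPM in SMH at 4 months, 2 years and 3 years, against 3.69, 4.73 and 3.16 CPM in SB825, a log2 difference of 3.26 (SE 0.34, adjusted p = 0.00717) in edgeR. Bot_c23828 had 8.39, 9.62 and 6.57 CPM in SMH at 4 months, 2 years and 3 years, against 2.44, 2.33 and 3.29 CPM in SB825, a difference of 2.11 (SE 0.28, adjusted p = 0.0123) in edgeR. CAP3_round1_contig_7099 had 19.3, 13.3 and 12.3 CPM in SMH at 4 months, 2 years and 3 years, against 5.03, 4.46 and 6.73 CPM in SB825, a difference of 1.97 (SE 0.30, adjusted p = 0.0187) in edgeR. These 6 passed the threshold with the same sign under every alternative that was tried. The number of higher members fell to 4 without SB825 at 2 years (1.98% of all contigs). Without SMH at 2 years it was 6 (2.25%), without SB825 at 4 months 9 (2.46%) and without SMH at 4 months 10 (4.03%). The number lower fell to 5 without SB825 at 2 years (1.81%).

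The last comparisons asked about age, which the study set out to describe, in the colonies that had the members. Between 3 and 2 years in the 3 lines, 0 of the 196 members and 0 of 43076 contigs (0%) passed in edgeR, and 4 members had an unadjusted p under 0.05, 0 lower and 4 higher at 3 years, against 0.58% and 0.878% of all contigs. DESeq2 also called 0 members, against 0.0299% of all contigs as lower and 0.0918% as higher. The member of smallest p was the ARF1 homolog Bot_rep_c51759, with 20.6, 114 and 32.7 CPM in SMG, SB825 and SMH at 3 years, against 5.06, 16.8 and 14.7 CPM at 2 years, a log2 difference of 2.24 (SE 0.61, adjusted p = 1.00 in edgeR). The CSMD1 homolog CAP3_round1_contig_9351 came next, with a log2 difference of 0.86 (SE 0.26, adjusted p = 1.00 in edgeR). Within each line both were higher at 3 years, and neither passed the test.

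Between 3 years and 4 months in SB825 and SMH, 0 members and 0 of 43116 contigs (0%) passed in edgeR. Of the members, 2 had an unadjusted p under 0.05 as lower at 3 years and 10 as higher, against 0.858% and 3.69% of all contigs, and DESeq2 called 1 lower and 7 higher, against 0.269% and 1.92% of all contigs. The member of smallest p was CAP3_round1_contig_9332, with the Ciona match to epithelial membrane protein 2, which had 16.3 and 17.2 CPM in SB825 and SMH at 3 years, against 4.20 and 2.25 CPM at 4 months, a log2 difference of 2.70 (SE 0.45, adjusted p = 0.629) in edgeR. Median log2 differences of the members were 0.09 between 3 and 2 years and 0.07 between 3 years and 4 months. Over all contigs tested they were -0.01 and 0.02, and over the 20860 they were -0.02 and -0.10. The rule held the colonies of both age comparisons to 1 CPM or more.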

How the data were processed

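Read counts per contig came from 27 libraries (31013902 to 48426188 reads each). The authors trimmed read pairs, mapped them with Bowtie 0.12.7 to an EST assembly, and deposited raw counts, with CASAVA 1.8.2, SAMtools 0.1.18 and DESeq 1.10.1 also named in the submitters' processing notes. A second deposited table holds the authors' own normalized means, fold changes and p-values, and was not used. Homolog names came from 1998 rows of a table of the study.

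Libraries of each line and age were summed to a colony, the unit of replication, because the labels give them 1 genotype name. The study calls them biological replicates of each genotype, and the labels do not say that they came from separate colonies. Their pooled spread exceeded sampling noise in every colony, but a pooled value cannot show whether any library repeats another. P-values measure the spread between ages within a line in the line comparisons, and the spread between lines at the same age in the age comparisons. edgeR 4.0.16 in R 4.3.3 (TMM, filterByExpr, glmQLFit with robust estimation, glmQLFTest) tested 4 contrasts, with a 10% false discovery rate, and DESeq2 1.42.0 was an alternative. SEs were derived from F statistics. The edgeR function was run on simulated counts for 3 colonies against 3 only, and the contrasts with other group sizes were not simulated. Colonies of a line are 1 family and deviated together (r 0.28 to 0.59 between 3 and 2 years), so a block for line was an alternative. Intervals and floors cover counting error only.

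The members and the lists were chosen with earlier results of these data known. Named contigs are the 10 of highest rank, members with a human or Ciona homolog name, up to 3 of smallest p in each direction past the threshold in each test, the 3 largest and 3 smallest ratios over colonies, and contigs at the limits. Other contigs named (those following each other, those with the smallest p where none passed, and the FRAS1 call) were chosen after their values were seen.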

Additional observations from a re-analysis of the deposited data

Results flagged for a closer look

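Among SB825 and SMH at 3 and 2 years, 31 sets of 4 colony values were examined for a colony far from the others. Of these, 4 stood apart. The sets mix lines and ages, and some contigs were chosen for their range or p-value, so no chance rate applies to this count. Bot_c2830 was at 2345 CPM in SMH at 2 years, with a gap to the nearest colony of 0.9995 of the whole range, and Bot_rep_c56477, the ERH homolog, was at 20.8 CPM in SMH at 3 years, with a gap of 0.946. CAP3_round1_contig_7431 was at 147 CPM in SB825 at 2 years, with a gap of 0.883, and Bot_c33954, the FRAS1 homolog, was at 5.03 CPM in SMH at 2 years, with a gap of 0.833.

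Bot_rep_c56477 also moved in opposite directions with age in SB825 and SMH: all SB825 libraries were lower at 3 years than at 4 months, and all SMH libraries were higher. The log2 change in SB825 minus that in SMH was -4.33. This difference between the lines was not tested.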

How the results depend on the processing

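The number of contigs that met the limits was 492, and changed to 294 with a limit of 0.05 CPM in young SMG, 792 with 0.2 CPM, 1304 with 0.5 CPM in the other colonies, 160 with 2 CPM, and 178 with the limits on each library. Of the 196 members, 117 stayed members with 0.05 CPM, 124 with 0.2 CPM and 106 with the limits on each library. Without a replicate library it was 464 to 495. With libraries as separate samples, which ignores that they share a colony, members called were 60 lower and 46 higher in SMG than in the other lines (23.4% and 26.0% of all contigs), 38 lower and 69 higher in SMH than in SB825 (24.2% and 26.5%), 1 lower and 9 higher at 3 than at 2 years (1.44% and 1.91%), and 26 lower and 44 higher at 3 years than at 4 months (11.6% and 13.0%). DESeq2 called 27 lower and 26 higher in SMG (8.62% and 8.30% of all contigs), 11 lower and 38 higher in SMH (7.88% and 8.52%), and 1 lower and 7 higher at 3 years than at 4 months (0.269% and 1.92%). For SMG against the other lines, leaving out a replicate library gave 6 to 9 lower and 8 to 11 higher. The shares of all contigs were 1.49% to 1.64% lower and 1.69% to 1.82% higher. Leaving out a colony there put the median log2 difference of the members between -0.21 and 0.06. For SMH against SB825, leaving out a replicate library gave 8 to 10 lower and 17 to 23 higher. The shares of all contigs were 4.35% to 5.19% lower and 4.65% to 6.19% higher. Leaving out a colony gave 5 to 11 lower (1.81% to 5.91%) and 4 to 25 higher (1.98% to 7.30%). Library totals alone gave 29 lower (16.8%) and 9 higher (3.79%). With age as a replicate block, 1 was lower and 5 were higher in SMG (0.202% and 0.191% of all contigs). In SMH it gave 7 lower and 16 higher (3.59% and 4.11%). Replicate numbers pair no colonies, since libraries were summed, and the line block called 0 for both age comparisons. With that block, 12 members and 1382 of 43076 contigs had an unadjusted p under 0.05 in edgeR between 3 and 2 years. Between 3 years and 4 months these were 23 members and 2718 of 43116 contigs. Both counts were higher than without the block. Library totals alone moved the median log2 difference of all contigs to -0.32 for SMG against the other lines.

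Of the contigs named from the 2 line comparisons, 178 contig and setting pairs kept direction and call and 14 lost the call, all for SMG against the other lines, with adjusted p in edgeR from 0.103 to 0.224; 0 changed sign. Over all 492 contigs that met the limits, a choice made after the data were seen, 30 were lower and 14 higher in SMG than in the other lines (2.01% and 2.24% of all contigs), and 33 lower and 40 higher in SMH than in SB825 (4.89% and 5.56%). Depth limits the lower end: at 110326590 reads, levels under 0.0544 CPM (3 read pairs) cannot be told from 0 in young SMG.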
